A study of Mus musculus with 14 samples.

Results

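Chromatin-immunoprecipitation sequencing (ChIP-seq) peak lists were examined at 9 genes of the IL-6 cytokine family and its signaling pathway in 3T3-L1 adipocytes. The genes were chosen by name, and they are the ligands Il6, Lif, and Il11, the receptors Il6ra, Lifr, Osmr, and Il6st, the transcription factor Stat3, and the feedback inhibitor Socs3. They are 9 of 21866 protein-coding genes in the annotation. Each gene body with 50 kb on either side formed a window, and windows were 104.0 to 206.9 kb long with a median of 146.0 kb. Across 12 lists, 473 of 243429 peaks overlapped these windows. 3T3-L1 is a mouse fibroblast-like line that forms adipocytes in culture, and cells were used after 4 days of differentiation. All groups were of this 1 line, and the labels name no other genotype. Control cells were left untreated, and the other groups received FSK (forskolin, 10 µM), TNFα (10 ng/ml), or FSK with TNFα, each for 1 h. Chromatin was precipitated with antibodies to CRTC2, NF-κB p65, or the acetylated histone H3AcK27. Each combination of antibody and treatment was a single library, so no difference below has a replicate check and no p-value is given.

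The 12 libraries held 9832884 to 31807394 tags, and the H3AcK27 library of FSK-treated cells was the shallowest. List length for CRTC2 was 5188 peaks for control cells, 11749 for FSK, 19527 for TNFα, and 14171 for the combination. For p65 it was 214, 2969, 2404, and 4221 peaks in that order. Peak height is given as normalized tags, which the authors scaled to 10000000 tags per library, and ranks order the peaks of a list by the authors' score. A peak under the calling threshold is not listed, which does not show that signal was absent there. Control and TNFα libraries were called against input of untreated cells, and FSK and FSK/TNFα libraries against input of FSK-treated cells. An H3AcK27 region lay over a start site of 4 of 9 adipocyte markers in control cells (Pparg, Fabp4, Lpl, and Lipe), and Cebpa, Adipoq, Plin1, Cd36, and Slc2a4 had none in any library. Of 5 macrophage markers, 1 or 2 had such a region in each library, while Ptprc, Adgre1, and Itgam had none. Of 3 muscle markers at most 1 had one (Myog), and of 3 liver markers none had one. The part of other cell types in the results was not tested.

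Cytokines of the IL-6 family signal through receptor complexes that share the gp130 subunit, the product of Il6st. Receptor binding activates Janus kinases, which phosphorylate STAT3, and STAT3 induces SOCS3, which in turn restrains the kinases and the receptor. In adipose tissue IL-6 and related cytokines are released by adipocytes and by immune cells and act on metabolism and inflammation. CRTC2 is a coactivator of CREB that enters the nucleus when cAMP rises, and FSK raises cAMP by activating adenylyl cyclase. TNFα releases p65, an NF-κB subunit, to the nucleus.

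The sites that carried the tallest CRTC2 peaks near a start site, and the distal sites of Lif and Il11, are shown because the results turn on them. Sequences are from the RefSeq GRCm38 assembly, read 5′ to 3′ on the strand of the gene, and all but that of Osmr overlap no exon of a protein-coding transcript. Capitals mark exact matches to the CRE core TGACG, the AP1 motif TGANTCA, the NF-κB motif (GGAA, any 3 bases, then CCC), the STAT motif TTCNNNGAA, or the C/EBP motif TTNNGCAA on either strand. In the Il6 promoter the AP1 match lies 249 bp, the CRE match 135 bp, the C/EBP match 128 bp, and the NF-κB match 44 bp upstream of the nearest start site. The Stat3 promoter holds overlapping CRE matches on both strands, 285 and 282 bp upstream. For Osmr only the 30 bases around an AP1 match are shown, 659 bp into the untranslated first exon of 769 bp. In the Socs3 promoter the NF-κB match overlaps the STAT match, which starts 61 bp upstream of the start site. The Socs3 stretch is the 120 bp before the start site, and both matches lie outside every listed CRTC2 and p65 peak. Over the 200 bp before the outermost start site of all 21866 genes, a CRE match occurred in 17.2%, AP1 in 4.81%, NF-κB in 4.12%, STAT in 5.8%, and C/EBP in 7.2%. The AP1 match of Il6 and the matches of Stat3, Lif, Osmr, and Il11 lie outside that interval, so these shares are no like background for them. A match is a run of letters and not a measured site.
Il6 promoter (chr5:30012846-30013113, plus strand): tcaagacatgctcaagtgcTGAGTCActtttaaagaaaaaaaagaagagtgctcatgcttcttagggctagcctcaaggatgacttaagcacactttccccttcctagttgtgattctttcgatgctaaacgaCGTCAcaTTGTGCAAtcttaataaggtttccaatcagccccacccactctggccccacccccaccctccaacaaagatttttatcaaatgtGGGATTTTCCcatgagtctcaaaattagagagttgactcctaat
Stat3 promoter (chr11:100939700-100939862, minus strand): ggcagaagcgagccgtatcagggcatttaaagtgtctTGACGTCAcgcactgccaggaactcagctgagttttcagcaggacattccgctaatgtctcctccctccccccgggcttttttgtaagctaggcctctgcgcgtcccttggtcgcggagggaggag
Lif first distal site (chr11:4299873-4300073, plus strand): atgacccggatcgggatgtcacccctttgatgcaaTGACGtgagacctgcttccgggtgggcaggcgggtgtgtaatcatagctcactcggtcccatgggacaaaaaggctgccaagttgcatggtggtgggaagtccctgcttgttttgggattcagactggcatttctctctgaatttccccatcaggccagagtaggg
Lif second distal site (chr11:4308747-4308909, plus strand): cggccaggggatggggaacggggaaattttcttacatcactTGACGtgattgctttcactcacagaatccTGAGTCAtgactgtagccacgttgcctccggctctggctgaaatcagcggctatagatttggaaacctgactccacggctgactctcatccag
Osmr first exon (chr15:6874293-6874322, minus strand): ttgccccgtagtTGATTCAtagctggggcg
Il11 upstream site (chr7:4780086-4780248, minus strand): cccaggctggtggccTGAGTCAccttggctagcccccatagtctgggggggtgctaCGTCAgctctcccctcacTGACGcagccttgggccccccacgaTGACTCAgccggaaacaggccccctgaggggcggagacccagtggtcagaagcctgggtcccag
Socs3 promoter (chr11:117969187-117969306, minus strand): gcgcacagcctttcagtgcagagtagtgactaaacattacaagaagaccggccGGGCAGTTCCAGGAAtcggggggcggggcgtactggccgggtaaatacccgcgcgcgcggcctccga

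CRTC2 peaks around these genes were fewest in control cells and p65 peaks there were absent from the control list. The 9 windows held 8 CRTC2 peaks in control cells, 37 after FSK, 56 after TNFα, and 43 with FSK and TNFα. The median per window was 1, 5, 7, and 4 peaks, whereas over all protein-coding genes it was 0, 1, 2, and 1, with a median window of 117.4 kb. The order of treatments rested on the list lengths. With the best 5188 peaks of each list the windows held 8, 18, 11, and 24 CRTC2 peaks, so that the FSK/TNFα list then gave the most and the TNFα list fewer than FSK. Per 1000 listed peaks the windows took 1.54, 3.15, 2.87, and 3.03. For p65 the windows held 0, 8, 11, and 16 peaks, or 0.0, 2.69, 4.58, and 3.79 per 1000 listed. At least 1 p65 peak lay in the window of 5 genes with FSK, where 16.9% of all genes had one, of 6 with TNFα (14.9%), and of 7 with both (22.2%). The control list, in which 1.91% of genes had a p65 peak, gave none for the 9 genes. Il6st was the gene with no p65 peak in any library. At least 1 CRTC2 peak lay in the window of 6 genes in control cells (39.2% of all genes), 8 with FSK (60.4%), and all 9 with TNFα (70.3%) and with both (64.4%).

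**Figure D1:**
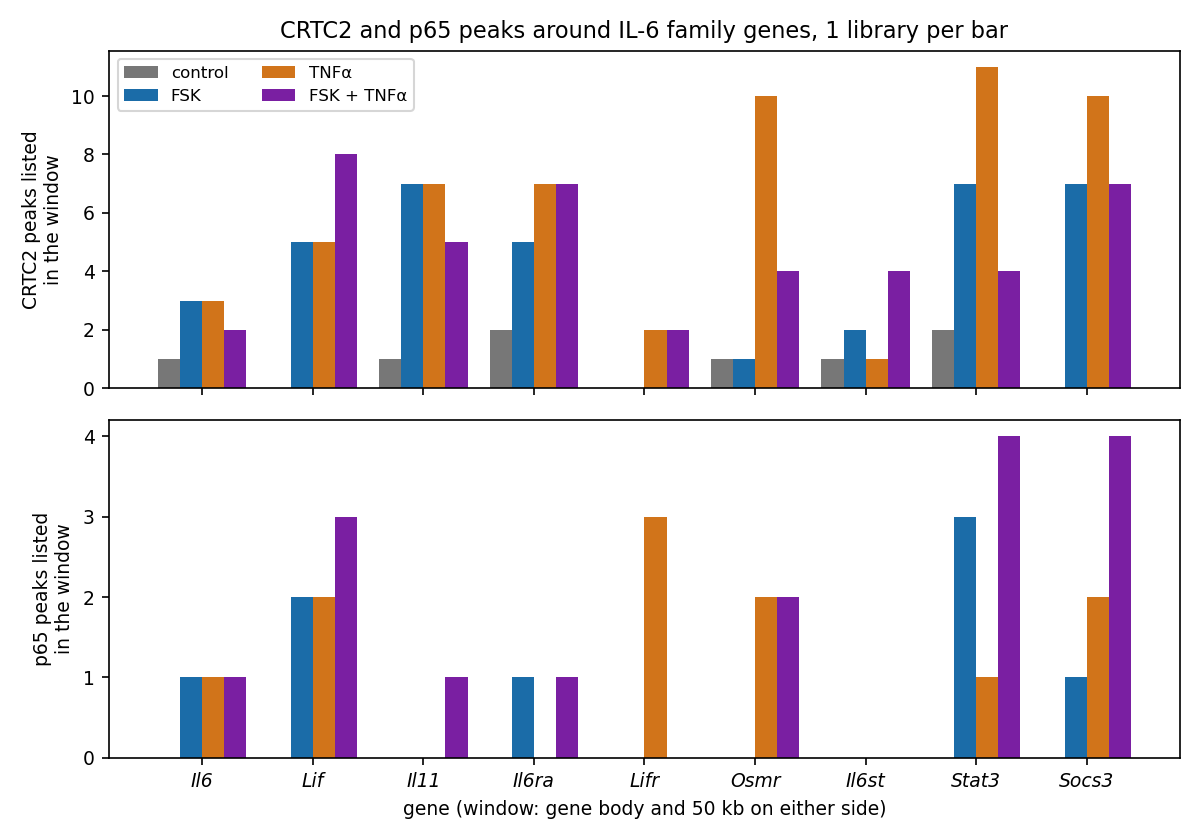
Number of CRTC2 peaks (top) and p65 peaks (bottom) listed in each gene's window, with 1 bar for each library and the treatments in 4 colors. Stat3 had the most CRTC2 peaks, 11 with TNFα, Osmr had 10 with TNFα against 1 with FSK, and p65 bars are absent for Il6st and for every gene in control cells.

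CRTC2 lay in the promoter, which ran from 1000 bp before a start site to 100 bp after it, of 3 genes in control cells (Il6, Il6st, and Stat3), where 11.8% of all genes had such a peak. With FSK the number was 5 (Il6, Il6ra, Il6st, Stat3, and Socs3; 27.4% of all genes). With TNFα it was 7, namely every gene but Il11 and Osmr (39.9%), and with both it was 6, as Il6ra was not listed (29.1%). Relative to control cells, promoter peaks appeared with FSK at Il6ra and Socs3, where 17.7% of all genes gained one. With TNFα they appeared at Lif, Il6ra, Lifr, and Socs3 (28.5%), and with both at Lif, Lifr, and Socs3 (19.6%). The promoter peaks of Lif and Lifr lay at internal start sites. If the upstream end of each gene alone was taken as its start site, the TNFα count fell to 4 and the FSK/TNFα count to 3. For Socs3 that end lies 861 bp from its only start site, so its peak also dropped out of the count. A p65 peak lay in 1 promoter, that of Socs3 with FSK (0.585% of all genes), and in none in control cells (0.0915%), with TNFα (0.627%), or with both (1.01%).

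Among the ligands, Il6 (ENSMUSG00000025746, chr5:30013114-30019981, plus strand), which encodes interleukin-6, had a CRTC2 peak upstream of its start site in every library. The peak over the promoter sequence above held 14.8 normalized tags in control cells, 34.1 after FSK, 11.0 after TNFα, and 40.2 with FSK and TNFα. Its ranks were 913, 689, 9779, and 300, so the locus stood high in the lists with FSK and in the middle of the TNFα list. Peak midpoints were 252 bp upstream in control cells, 211 bp with FSK, 313 bp with TNFα, and 187 bp with both. The peaks with FSK and with both covered the CRE match, and the other midpoints were farther upstream. The TNFα library had another peak 14 bp downstream of the nearest start site, with 11.7 tags. No p65 peak was listed at the Il6 promoter in any library, and the NF-κB match there lay outside every listed CRTC2 peak.

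The Il6 window had a distal locus about 12 kb upstream of the start site, where CRTC2 held 14.0 normalized tags with FSK and 18.5 with both and was not listed in the other libraries. A p65 peak of 12.2 tags (rank 3104 of 4221) overlapped it with FSK and TNFα. The 200 bp around that p65 peak held a CRE match and a pair of identical STAT matches (TTCCTGGAA). With TNFα alone the p65 peak of the window lay 18.1 kb upstream with 13.8 tags, and with FSK alone 23.0 kb downstream with 12.4 tags, so the p65 peaks of the treatments were at different positions. H3AcK27 covered the upstream locus in every library at 31.8 normalized tags per kb in control cells, 53.4 after FSK, 28.7 after TNFα, and 50.7 with both.

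Lif (ENSMUSG00000034394, chr11:4257557-4272514, plus strand), which encodes leukemia inhibitory factor, had no CRTC2 peak in its window in control cells, 5 after FSK, 5 after TNFα, and 8 with both. The tallest lay downstream of the gene in an intergenic stretch. At the first distal site above, 27.4 kb past the gene end, CRTC2 held 29.2 normalized tags with FSK, 11.3 with TNFα, and 58.8 with both, at ranks 589, 6693, and 97. At the second distal site, 36.3 kb past the gene end, it held 54.7 tags with both and was not listed with TNFα. The FSK peak of this locus, with 23.7 tags, was centered 36.4 kb past the gene end. It overlapped the sequence above only in part and covered neither the CRE nor the AP1 match. Between the first and second distal sites, 41.1 kb from the nearest start site, another locus held 17.0, 10.2, and 21.7 tags with FSK, TNFα, and both. A locus 27.6 kb from the start site held 12.8 tags with FSK and 26.4 with both. At each of these 4 loci the FSK/TNFα library had the highest value and control cells had none listed. A low peak lay 531 bp upstream of the internal start site with TNFα (11.3 tags) and with both (13.2 tags).

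p65 was listed at the same Lif sites. At the first distal site it held 26.8 normalized tags with TNFα (rank 81 of 2404) and 32.2 with FSK and TNFα (rank 55 of 4221), and it was not listed in control or FSK-treated cells. With both treatments the CRTC2 and p65 midpoints were 38 bp apart. With TNFα alone a gap of 10 bp separated the low CRTC2 peak from the p65 peak. At the second distal site p65 held 11.5 tags with TNFα, at a midpoint 3 bp from the AP1 match, and with both treatments p65 peaks lay on either side of it, 41.1 kb from the start site with 10.7 tags and 42.8 kb from it with 8.3 tags. An H3AcK27 region of 22044 bp covered this stretch already in control cells with 89.8 normalized tags per kb, and it held 130 after FSK, 134 after TNFα, and 146 with both.

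**Figure D2:**
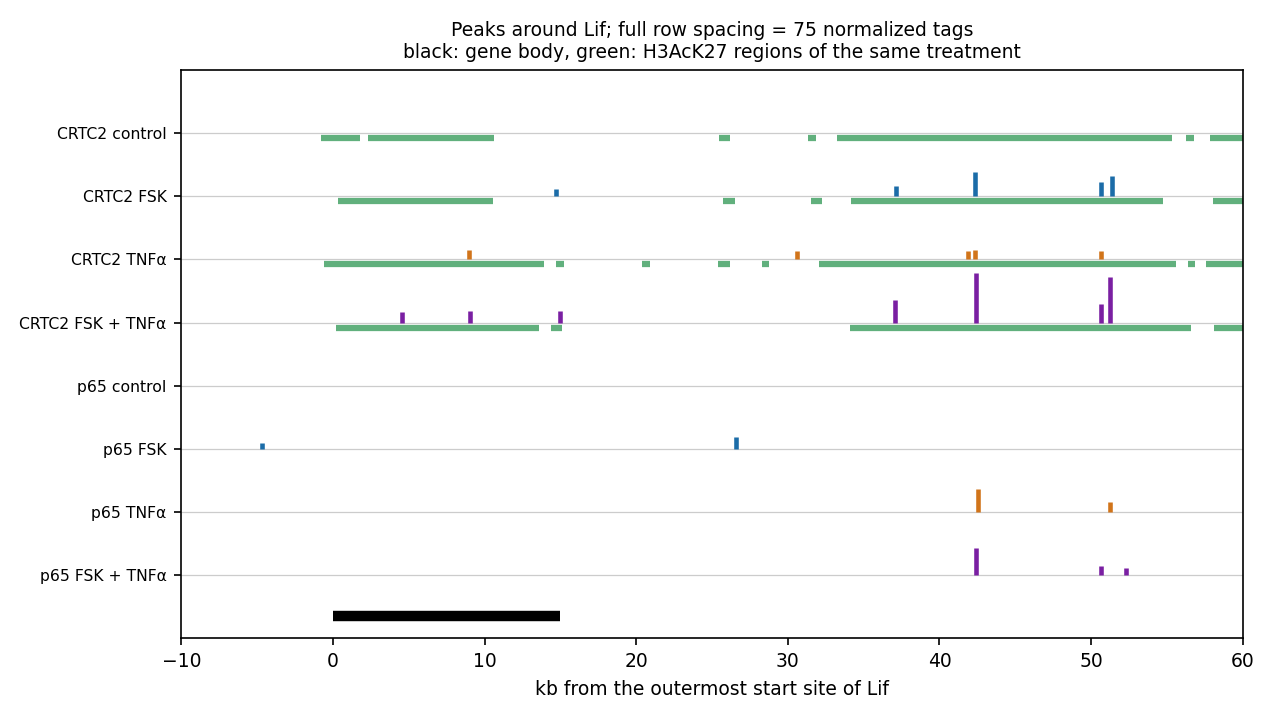
Map of CRTC2 and p65 peaks around Lif, with distance from the outermost start site in kb on the horizontal axis and 1 row for each library. Vertical bars stand at peak midpoints with a height in proportion to normalized tags, green bars on the CRTC2 rows are H3AcK27 regions of the same treatment, and the black bar is the gene body. The tallest CRTC2 bars are the 2 of the FSK/TNFα library downstream of the gene, at 58.8 and 54.7 tags.

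Il11 (ENSMUSG00000004371, chr7:4772373-4782859, minus strand), which encodes interleukin-11, had no peak of either factor in a promoter. A CRTC2 locus 2.01 kb upstream of its internal start site, in the first intron of the longer transcript, held 15.2 normalized tags with FSK and 21.7 with both, and was not listed in control or TNFα libraries. Its sequence above holds CRE and AP1 matches, 2 of each. Of the other CRTC2 peaks in the window, several lay at neighboring genes. The one in all libraries was at the promoter of Rpl28, a ribosomal protein gene, with 15.4 normalized tags in control cells, 14.0 after FSK, 36.6 after TNFα, and 13.5 with both, and was thus highest after TNFα.

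Among the receptors, Osmr (ENSMUSG00000022146, chr15:6813577-6874969, minus strand), which encodes the oncostatin M receptor subunit, had its tallest CRTC2 peak in the first exon. This locus, 723 bp downstream of the start site and outside the promoter as defined, was not listed in control cells. It held 32.9 normalized tags with FSK (rank 574), 61.2 with TNFα (rank 361), and 46.5 with both (rank 226). A p65 peak of 30.3 tags (rank 105 of 4221) overlapped it with FSK and TNFα, and none was listed there with TNFα or FSK alone. The AP1 match lay inside the CRTC2 peak of that library. With TNFα alone the p65 peaks of the window lay 39.3 and 40.3 kb upstream of the start site, with 11.9 and 13.8 tags. TNFα also gave the most CRTC2 peaks in the window, 10 against 1 in control cells, 1 with FSK, and 4 with both, and the other 9 held between 8.31 and 15.1 tags.

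Lifr (ENSMUSG00000054263, chr15:7090614-7197489, plus strand), which encodes the receptor subunit for leukemia inhibitory factor, was without a CRTC2 peak in control and FSK-treated cells. At the internal start site 38945 bp into the gene CRTC2 held 28.0 normalized tags with TNFα and 10.4 with both. p65 was listed with TNFα alone, at 3 positions. The best ranked, 197 of 2404, lay in an intron 4.3 kb upstream of another start site with 18.6 tags, and the others held 17.8 and 17.1 tags. No p65 peak was listed in the Lifr window with FSK and TNFα, although that list was the longest.

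Il6ra (ENSMUSG00000027947, chr3:89864059-89913196, minus strand) encodes the ligand-binding subunit of the interleukin-6 receptor. CRTC2 was not listed near its start site in control cells. With TNFα a peak of 30.2 normalized tags lay 29 bp downstream of the start site. With FSK a peak of 13.4 tags lay 967 bp upstream and one of 15.8 tags 457 bp downstream, and with both a peak of 15.1 tags lay 461 bp downstream, so the TNFα peak did not overlap those of the libraries with FSK. The p65 peak with both treatments lay in an intron 7.81 kb from the start site with 16.6 tags, 223 bp from a CRTC2 peak of 14.1 tags, and the one with FSK lay 19.1 kb upstream with 9.62 tags.

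Il6st (ENSMUSG00000021756, chr13:112464070-112510086, plus strand), which encodes gp130, had a CRTC2 peak at its start site in all libraries. The values at this locus were 12.7 normalized tags in control cells, 14.0 after FSK, 9.07 after TNFα, and 13.8 with both. The FSK/TNFα library alone listed another promoter peak, 200 bp upstream of the start site, with 11.0 tags. The tallest CRTC2 peak in its window lay 19.9 kb past the gene end within Il31ra, a neighboring receptor gene, with 49.3 tags with FSK (rank 279) and 21.7 with both, and was not listed in the other libraries.

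Stat3 (ENSMUSG00000004040, chr11:100885098-100939540, minus strand) carried the best ranked CRTC2 peak of all windows. In the promoter sequence above it held 15.9 normalized tags in control cells, 63.3 after FSK, 27.2 after TNFα, and 67.6 with both, at ranks 1208, 98, 1620, and 60. At this locus both libraries with FSK stood well above both libraries without it. With TNFα an additional peak of 30.6 tags lay 34 bp downstream of the nearest start site, over a first exon. Summed over the CRTC2 peaks from 5 kb upstream to the gene end, Stat3 held 71.82 tags with FSK, 94.07 with TNFα, and 67.6 with both. No p65 peak overlapped the CRTC2 promoter peak in any library. With FSK a p65 peak of 9.62 tags (rank 2558 of 2969) lay 290 bp downstream of the nearest start site, 529 bp from the CRTC2 peak. With FSK and TNFα the p65 peaks of the window lay 22.5, 35.1, and 40.6 kb upstream and within Stat5a, with 7.81 to 15.6 tags. Those upstream lay nearest to a start site of the neighboring gene Cavin1.

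Socs3 (ENSMUSG00000053113, chr11:117966079-117970047, minus strand) had no CRTC2 peak in its window in control cells. With treatment CRTC2 lay over the first exon, 33 to 35 bp downstream of the start site, with 41.4 normalized tags with FSK (rank 467), 61.2 with TNFα (rank 235), and 52.5 with both (rank 180). The midpoints of the 3 treated libraries thus lay within 2 bp of each other. Another locus past the gene end held 22.5 tags with FSK, at 2.69 kb, and 34.6 with both, at 2.61 kb and rank 372, and with TNFα a separate peak of 16.6 tags lay 2.37 kb past the gene end. p65 was listed 966 bp upstream of the start site with FSK, at 19.2 tags and rank 346 of 2969. With TNFα and with both treatments no p65 peak lay near the start site. p65 was listed 22.7 kb downstream of the start site with 13.4 tags with TNFα and 23.4 with both. It was also listed upstream, at 10.6 kb with 12.3 tags with TNFα and at 23.0 kb with 18.1 tags with both. Both of these upstream p65 peaks lay nearest to a start site of Pgs1, a neighboring gene. An NF-κB match (GGGGAATTCC) lay in the p65 peak 23.9 kb downstream, which held 17.1 tags with both treatments.

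**Figure D3:**
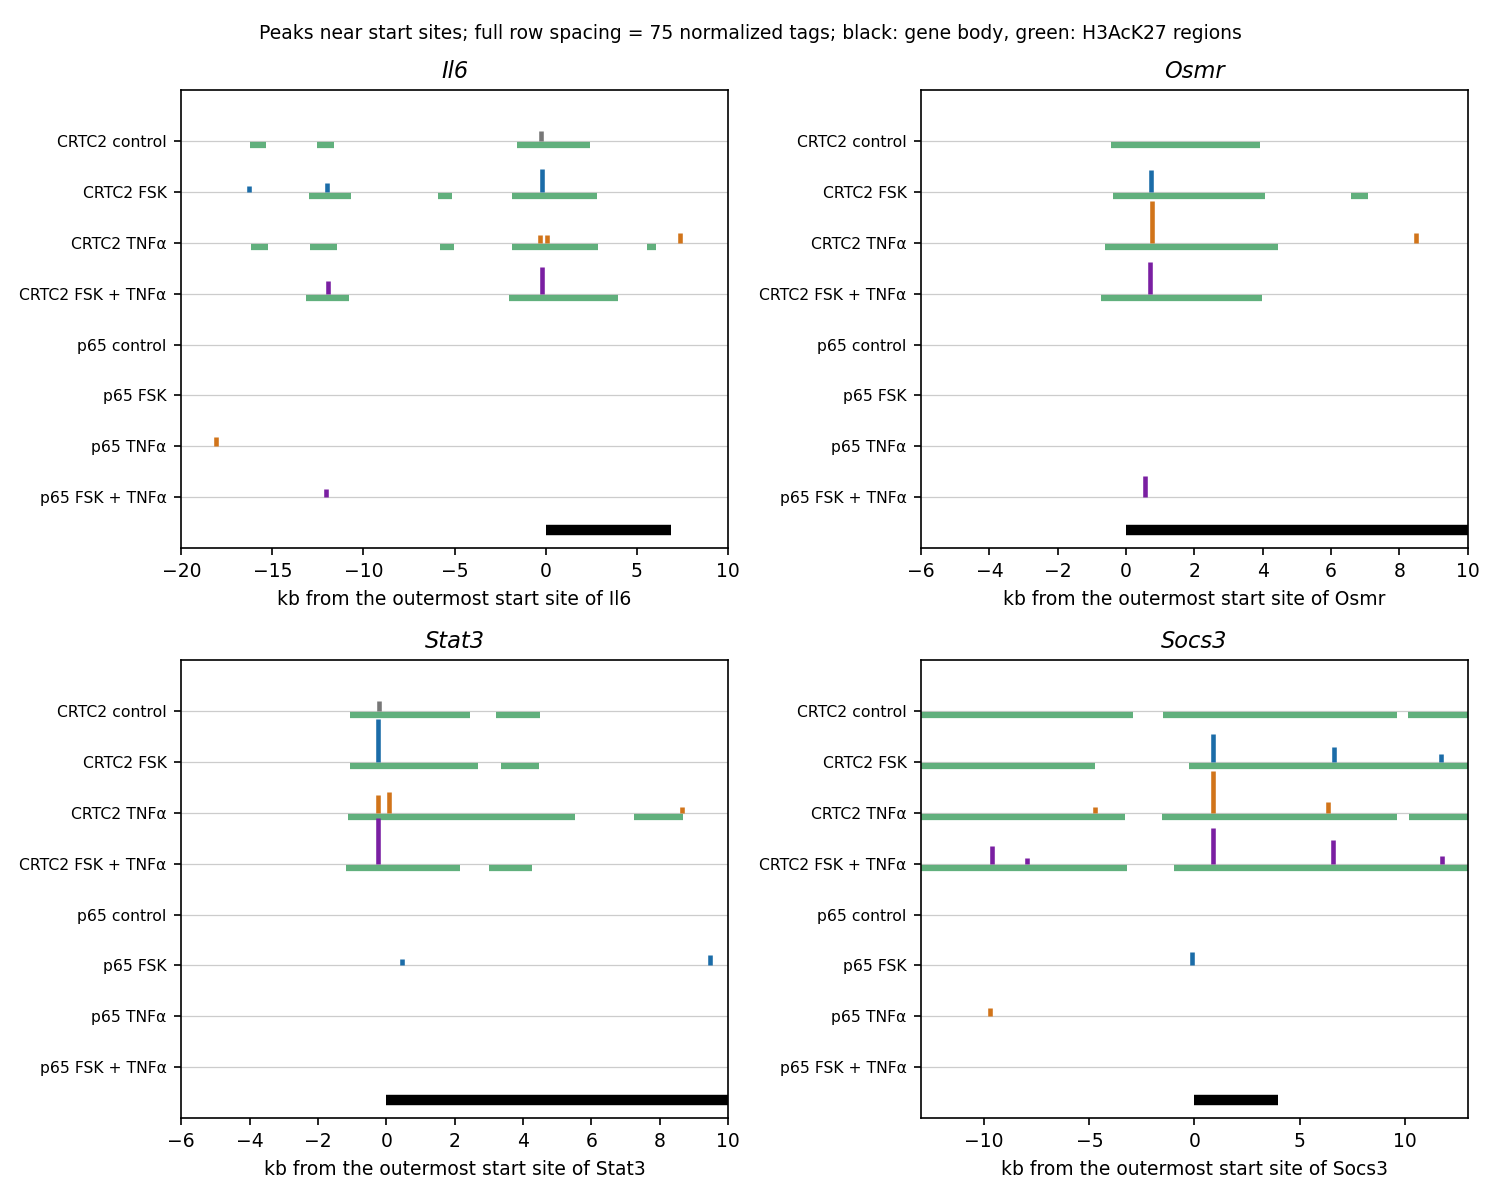
Maps of CRTC2 and p65 peaks near Il6, Osmr, Stat3, and Socs3, with distance from the outermost start site in kb. For Socs3 the distance runs from the upstream end of the gene, 861 bp upstream of its start site. Bars are in proportion to normalized tags, H3AcK27 regions are green on the CRTC2 rows, and the gene body is black. Each gene has a CRTC2 bar near its start site with FSK and with FSK and TNFα, from 32.9 tags at Osmr with FSK to 67.6 at Stat3 with both, and a p65 bar stands within about 1 kb of it at Osmr with both treatments, at Stat3 with FSK, and at Socs3 with FSK.

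CRTC2 and p65 peaks of the same treatment overlapped at 5 loci in the windows of 4 genes, all with FSK and TNFα, where 3.89% of all genes had a co-bound locus. In control, FSK, and TNFα libraries the count was 0, and 0.0503%, 0.864%, and 1.51% of all genes had one. The loci included the first distal site of Lif, the Lif site 41.1 kb from the start site, the Osmr first exon, and the Il6 site about 12 kb upstream. The remaining locus, 35.0 kb upstream of Stat3, lay nearest to a start site of Cavin1. At the first distal site of Lif and at Osmr both factors were high in their lists, with p65 within the best 1.3% and 2.49%. At the other 3 loci the p65 peak ranked between 57.4% and 81.8% of its list, and each had a score of 7, the lowest in the list. None of the 5 lay in a promoter. Within 20 kb of the gene body 2 of the 5 remained, those of Il6 and Osmr, and with 8-fold enrichment over input required of both factors 2 remained, both of Lif. With midpoints within 100 bp the count was 3. When peaks were taken as 500 bp to each side of the midpoint, FSK gave 1 locus (Stat3) and TNFα gave 3, all of Lif.

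CRTC2 peaks listed in 2 libraries allowed a ratio of normalized tags. FSK over control could be formed at 5 loci of the windows, and 3 were at least 2-fold higher, where 32.3% of 1891 such loci of the genome were. They were the Stat3 promoter (3.98-fold), the Il6 promoter (2.3-fold), and a site within Cavin1 31.0 kb upstream of Stat3 (2.03-fold), beside a genome median of 1.62. For TNFα over control the Cavin1 and Rpl28 sites were 2.39-fold and 2.38-fold higher, 2 of 5 loci (54.1% of all), with a genome median of 2.1. The Il6 promoter ratio was 0.743 and that of Stat3 1.71. Each leaves out a further listed TNFα promoter peak, of 11.7 tags at Il6 and 30.6 tags at Stat3. For FSK and TNFα over control 2 of 6 loci were at least 2-fold higher (29.2%), namely Stat3 at 4.25-fold and Il6 at 2.72-fold, with a genome median of 1.52. None was at least 2-fold lower in these comparisons, where 0.529%, 0.212%, and 0.264% of all loci were.

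Addition of TNFα to FSK changed most of these CRTC2 peaks by less than 2-fold. Of 23 loci listed in both libraries 3 were at least 2-fold higher with FSK and TNFα than with FSK alone, where 3.14% of 6457 loci were. All 3 were distal loci of Lif, at 2.06, 2.01, and 2.31-fold. After subtraction of the input the count was 2. At the second distal site, with the ratio of 2.31, the FSK and FSK/TNFα peaks overlapped only in part. The other distal locus of Lif listed in both, at 41.1 kb, had a ratio of 1.28. The site in Il31ra was lower, at 0.44 (4.29% of all loci were at least 2-fold lower). The ratio was 1.18 at the Il6 promoter, 1.07 at Stat3, 1.27 at Socs3, and 1.41 at Osmr, and the genome median was 0.964. Against TNFα alone, 4 of 14 loci were at least 2-fold higher with both (2.63% of all loci), the first distal site of Lif at 5.2-fold, the Il6 promoter at 3.65-fold, Stat3 at 2.49-fold, and the Lif site at 41.1 kb at 2.13-fold. The Lifr start site and the Rpl28 promoter were lower, at 0.371 and 0.369 (17.3%). Osmr and Socs3 were close to their TNFα values, at 0.76 and 0.858, near the genome median of 0.73. FSK alone was at least 2-fold higher than TNFα alone at 4 of 13 loci (3.11% of all loci), the Il6 promoter (3.1-fold), the first distal site of Lif (2.58-fold), the Stat3 promoter (2.33-fold), and a site within Kmt5c in the Il11 window (2.17-fold), and lower at the Rpl28 promoter (0.383; 15.0% of all loci). At Il6 and Stat3 the TNFα library listed another promoter peak, of 11.7 and 30.6 tags, that overlapped no CRTC2 peak of the other libraries. Those peaks are left out of the ratios, which compare single peaks and not whole promoters. Summed from 5 kb upstream to the gene end, Il6 held 34.1 tags with FSK, 22.7 with TNFα, and 40.2 with both. Stat3 held 71.82, 94.07, and 67.6 tags in that order, so in this sum the TNFα library was the highest for Stat3. These comparisons share libraries and are not independent of each other.

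**Figure D4:**
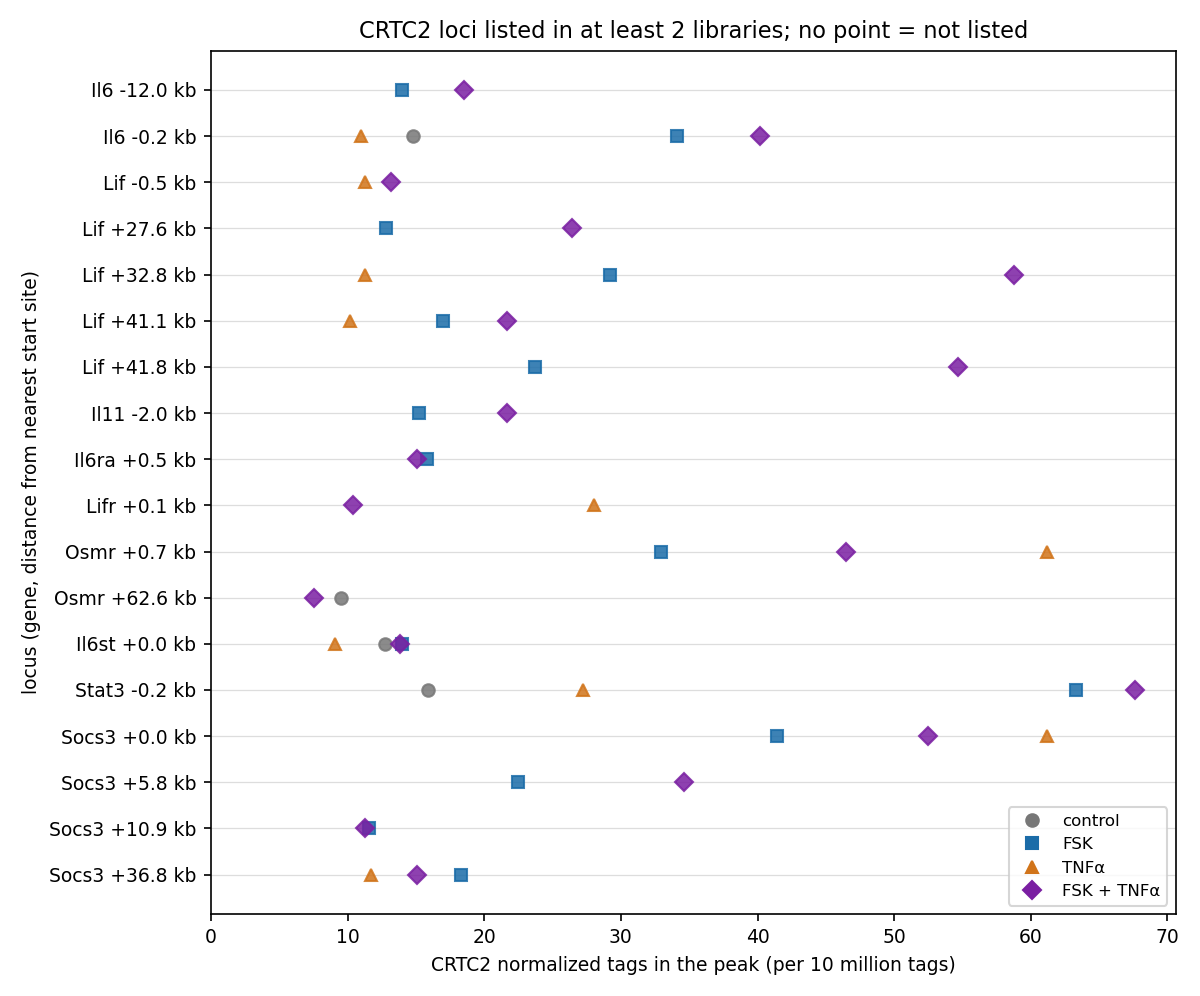
CRTC2 normalized tags at the 18 loci of the windows that were listed in at least 2 libraries and lay nearest to a start site of one of the 9 genes, with 1 marker for each library and no marker where a peak was not listed. FSK and FSK/TNFα markers stand to the right of TNFα at the Il6 and Stat3 promoters and at the Lif loci 32.8 and 41.1 kb downstream, whereas at Osmr +0.7 kb and the Socs3 start site the TNFα marker is the highest at 61.2 tags. Separate TNFα peaks at the Il6 and Stat3 start sites were listed in 1 library and are not drawn.

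Most loci were listed once. Of 99 CRTC2 loci in the windows 70 appeared in 1 library, 18 in 2, 6 in 3, and 5 in all 4, which is 70.7%, 18.2%, 6.06%, and 5.05%, and over the genome the shares were 68.8%, 16.8%, 9.96%, and 4.37%. Of 33 p65 loci 31 appeared in 1 library and 2 in 2, the first distal site of Lif and the Socs3 site 22.7 kb downstream. These are 93.9% and 6.06%, with 96.8% and 2.94% over the genome. The best 10% of the CRTC2 list held 12.5% of the peaks of the windows in control cells, 18.9% after FSK, 12.5% after TNFα, and 23.3% (10 of 43) with both. For p65 it held none of 8 after FSK, 2 of 11 after TNFα, and 4 of 16 with both. Of the p65 peaks in the windows 4 of 8 lay in an H3AcK27 region of the same treatment with FSK, 72.7% with TNFα, and 87.5% with both, whereas over all p65 peaks the shares were 16.1%, 39.6%, and 31.8%. For CRTC2 6 of 8 did in control cells, 83.8% after FSK, 66.1% after TNFα, and 79.1% with both, beside 59.6%, 84.1%, 74.5%, and 82.6% over all peaks.

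H3AcK27 lay over the promoter of all 9 genes in control cells (51.6% of all genes), with TNFα (51.3%), and with both (49.0%), and of 8 with FSK (46.9%), where Il11 was not listed. Regions covered 260.2 kb of the windows in control cells, 211.0 kb with FSK, 284.6 kb with TNFα, and 244.7 kb with both, at a mean of 90.9, 97.5, 96.4, and 99.2 normalized tags per kb. With lists of equal length the values were 196.8, 211.0, 241.0, and 236.1 kb, so the order of control cells against FSK, and against both, turned. The FSK library had the fewest tags, and its part in these lengths was not tested. At the start sites Il11 had the lowest density of the mark in each library that listed a region there.

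At the Il6 start site the region held 139 normalized tags per kb in control cells, 223 after FSK, 175 after TNFα, and 156 with both, more than at 97.3% to 99.7% of start site regions. Lif held 51.0, 73.7, 68.9, and 83.2 in the same order, Osmr 140, 142, 182, and 197, and Il6st 77.1, 116, 94.7, and 124. Stat3 held 119, 149, 90.7, and 170, and Socs3 156, 123, 173, and 151. Il6ra held 154, 133, 135, and 188, but its region with both treatments was 4.58 kb wide and the other 3 were 20.9 to 23.8 kb. Over all regions of the Il6ra window the mean was 127.2, 125.9, 124.7, and 111.2 tags per kb, so there the library with both was the lowest. Lifr was low, at 45.0, 30.1, 52.6, and 38.0, and Il11 held 16.9 in control cells, 15.8 with TNFα, and 24.4 with both. Widths differed at other genes too. The Il6 region was 3.98, 4.67, 4.71, and 6.02 kb wide in the same order, with 552.1, 1042.4, 823.1, and 938.6 tags in all. Its total with both was thus above that with TNFα, unlike its density. Lif regions were 8.29 to 14.5 kb wide and Lifr regions 0.641 to 1.94 kb. In tags per kb no gene of the 9 reached 2-fold over control under any treatment, where 0.864% of genes did with FSK, 0.292% with TNFα, and 1.09% with both, nor did any with both treatments over FSK (0.203%) or over TNFα alone (0.318%). The highest ratios over control were 1.63 at Lif with both and 1.61 at Il6 with FSK and at Il6st with both, against genome medians of 1.08 and 1.05. At Stat3 the value with both treatments was 1.88 times that with TNFα alone, above 99.4% of genes, but the TNFα region was 6.64 kb wide and the other 3 were 3.33 to 3.76 kb.

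**Figure D5:**
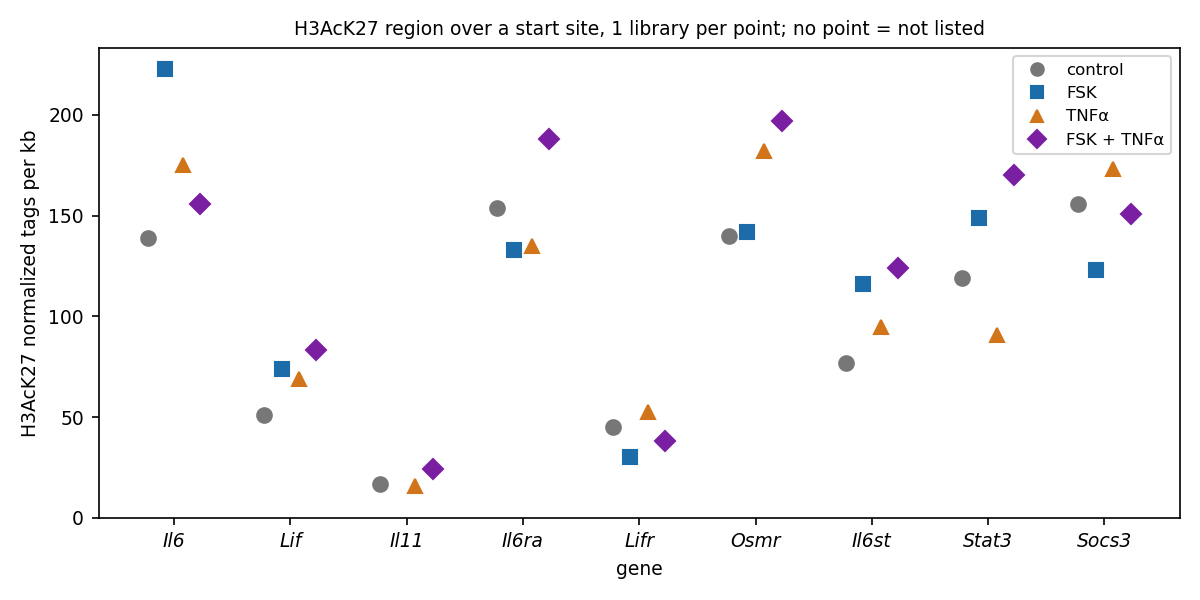
H3AcK27 normalized tags per kb of the region over a start site of each gene, with 1 marker for each library and no marker where no region was listed. Il6, Il6ra, Osmr, Stat3, and Socs3 lie between 90.7 and 223, Il11 lies between 15.8 and 24.4, and no gene doubles between control and a treatment.

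Motif matches in the 200 bp around peak midpoints were set beside those of the whole list. With FSK and TNFα a CRE match occurred at 14 of 43 CRTC2 peaks of the windows (32.6%, with 25.2% over all CRTC2 peaks), an AP1 match at 13 (30.2%, with 17.9%), and a C/EBP match at 9 (20.9%, with 11.3%). With FSK the CRE share was 24.3% (26.3%), the AP1 share 21.6% (15.1%), and the C/EBP share 13.5% (10.5%). With TNFα they were 8.93% (15.7%), 14.3% (7.28%), and 1.79% (6.72%), so C/EBP and CRE were less frequent in the windows than over all peaks there. At p65 peaks with both treatments AP1 occurred at 5 of 16 (31.2%, with 12.9% over all p65 peaks) and NF-κB at 1 of 16 (6.25%, with 9.55%). With TNFα NF-κB occurred at 2 of 11 p65 peaks (18.2%, with 12.7%), 1 upstream of Osmr and 1 in Cavin1. With FSK alone NF-κB occurred at none of the 8 and at 1.85% of all p65 peaks of that list. Several peaks in a window can cover 1 match, so these counts are not independent.

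Of 22 other genes of the pathway (ligands, receptors, kinases, STATs, and inhibitors), 4 had a CRTC2 promoter peak in control cells (11.8% of all genes), 10 after FSK (27.4%), 13 after TNFα (39.9%), and 9 with both (29.1%). None had a p65 promoter peak in any library. A p65 peak lay in the window of 2 in control cells (1.91% of all genes), 5 after FSK (16.9%), 6 after TNFα (14.9%), and 8 with both (22.2%). Among the windows with a co-bound locus were those of Stat5b with TNFα and of Osm and Cish with both. Osm, which encodes oncostatin M and lies next to Lif, had its co-bound locus 40.7 kb upstream with 11.3 CRTC2 and 16.6 p65 tags. Cish, a SOCS family inhibitor, had one 31.9 kb upstream with 26.1 and 14.2 tags. At Stat5b, which encodes a STAT factor, the locus lay 84.4 kb downstream of the start site with 12.5 and 11.2 tags. No promoter of the 22 was co-bound.

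The genes most like each member were found from summed normalized tags between 5 kb upstream and the gene end, by Euclidean distance on a log2 scale over the 12 libraries, for the 6 members with a p65 peak there. Among the 3 nearest were Nab2 and Nemp1 for Osmr (distances 1.23 and 1.63), and the nearest were Glod4, Ash1l, and Dnaja1 for Stat3 (1.12 to 1.49). For Il6ra they were Aspscr1, Anxa4, and Sik1 (1.36 to 1.59), and for Socs3 they were Sp2, Abr, and S100a10 (1.31 to 1.66). Those of Lif, Gm9958, Tgfbr2, and Rnf217, were farther (1.93 to 1.96), as were those of Lifr, Fam135a, Decr2, and Epc2 (2.21 to 2.94). At Nab2 CRTC2 held 36.5, 83.5, and 45.6 tags with FSK, TNFα, and both, and p65 held 18.1 with both alone, where Osmr had 32.9, 126.9, and 58.8 and a p65 value of 30.3. Neighboring genes can share peaks, as Nab2 and Nemp1 share the p65 value of 18.1.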

How the data were processed

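ChIP-seq of CRTC2, p65, and H3AcK27 was analysed in 12 libraries of 3T3-L1 cells, 1 for each antibody and treatment, grouped by their labels. Reads were aligned with STAR to mm10 and peaks called with HOMER, as named in the submitters' processing notes; versions are not given in the sources used here. The deposited signal of a peak is its tag number per 10000000 tags, scaled by the authors. The deposited score, which orders peaks within a list, counts at most 1 tag per position. The deposited fold is a ratio of tags over the input, for which the authors required 4-fold and set the Poisson p-value limit at 0.0001. Regions of H3AcK27 were joined from windows of 500 bp.

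Genes and start sites were those of protein-coding transcripts in GENCODE release M21 (GRCm38). Peaks overlapping by at least 1 bp over the 4 lists of an antibody formed a locus, and CRTC2 and p65 peaks of the same treatment that overlapped were called co-bound. No test was run, since each group is 1 library. All 9 members were named, together with the other pathway genes, a neighboring gene where its promoter held a peak in the text, and the 3 genes nearest to a member; some of these are not reported here. Il31ra, Cavin1, Kmt5c, and Pgs1 fall outside this rule and were named after their values were seen. The members and lists were chosen with earlier results of these data known. Overlap, window, and motif code passed 17 of 17 checks on simulated data. Python 3.11.15, numpy 2.4.6, and matplotlib 3.10.9 were used. Libraries held 9832884 to 31807394 tags, and a shallower library can miss weaker peaks. Input libraries were not analysed here except through the values in the lists.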

Additional observations from a re-analysis of the deposited data

Results flagged for a closer look

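At 3 of the 5 CRTC2 loci of the windows listed in all 4 libraries, a treatment went with a higher value in the absence of the other agent and a lower one in its presence, or the reverse. These differences were not tested, since each value comes from 1 library.

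The locus within Cavin1, 31.0 kb upstream of Stat3 (chr11:100970471-100970674), held 20.7 normalized tags in control cells, 42.0 after FSK, 49.5 after TNFα, and 38.0 with both. FSK over control was 2.03, whereas FSK and TNFα over TNFα was 0.768. TNFα over control was 2.39, whereas FSK and TNFα over FSK was 0.905. The locus at the Rpl28 promoter in the Il11 window had a TNFα over control ratio of 2.38 and an FSK and TNFα over FSK ratio of 0.964. At the Il6 promoter the corresponding ratios were 0.743 and 1.18. The TNFα library listed another Il6 promoter peak, of 11.7 tags, that is left out of the ratio. Summed from 5 kb upstream to the gene end, Il6 held 22.7 tags with TNFα and 14.8 in control cells, so the lower value rests on the peak used. Over all loci of the genome listed in both libraries of a ratio, the medians were 1.62 for FSK over control, 0.73 for both over TNFα, 2.1 for TNFα over control, and 0.964 for both over FSK, so the medians of each pair also lay on opposite sides of 1.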

How the results depend on the processing

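Of 184 recomputed values for 50 results, 133 stayed within 1.5 times the reported value and 51 moved by more. Values are in the order control, FSK, TNFα, and FSK/TNFα where 4 are given. With windows of 20 kb CRTC2 gave 5 peaks in control cells and 21 with FSK, p65 gave 6 with TNFα and 5 with both, H3AcK27 covered 137.1, 119.6, 159.7, and 133.9 kb, and 2 co-bound loci were left with both. With windows of 100 kb control cells had 16 CRTC2 peaks and 1 p65 peak. At 8-fold over input CRTC2 peaks in the windows fell to 2 in control cells and 22 with FSK, p65 peaks to 8 with both, CRTC2 promoters to 0 in control cells, and co-bound loci to 2. With lists of equal length CRTC2 peaks were 18 with FSK, 11 with TNFα, and 24 with both, p65 peaks 7 with both, and CRTC2 promoters 4 with TNFα. Counting only peaks nearest to a member left 4, 33, and 28 CRTC2 peaks in control, TNFα, and FSK/TNFα cells, 10 p65 peaks with both, and 154.9, 131.8, 176.1, and 152.9 kb of H3AcK27. The upstream end of each gene as its only start site gave 4 CRTC2 promoters with TNFα and 3 with both. Promoters of 500 bp on either side held 1 p65 peak with both, and those from 5000 bp upstream to 1000 bp downstream held p65 at 3 genes with FSK, 1 with TNFα, and 1 with both. Co-bound loci with both numbered 3 with midpoints within 100 bp, and peaks widened to 500 bp gave 1 with FSK and 3 with TNFα. At a 1.5-fold limit FSK/TNFα over FSK gave 5 higher and 2 lower CRTC2 loci, and FSK over TNFα 7 higher and 3 lower. The last number was also 3 after subtraction of the input and 0 with midpoints within 100 bp. In 400 bp NF-κB matches at CRTC2 peaks rose from 4 to 12, STAT from 11 to 18, and C/EBP from 16 to 28, and at p65 peaks STAT rose from 5 to 8 and C/EBP from 3 to 6. The exact NF-κB consensus of the study gave 0 at CRTC2 and 0 at p65 peaks. Apart from the construction of each alternative, the cause was not tested.

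No paired analysis was possible because each group is 1 library and the result comes from no test. Leaving out a library was not run, since it leaves its group empty. Depth limits which weak peaks are listed, most of all for H3AcK27 with FSK, and the FSK and TNFα lists were called against different inputs.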
